A study of Mus with 2 samples.

Results

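AA467197, also called Nmes1, and its paralogs Ndufa4 and Ndufa4l2 were followed in mouse bone marrow derived macrophages (BMDMs) that received the FXR agonist GW4064 or its solvent. The 3 genes were chosen by symbol, AA467197 because it was among the largest increases on the GW4064 array and the other two because they encode its closest relatives. They were read by 3 of the 39429 non-control probes, 1 probe each, and stand among 20144 genes matched by name. The probes are those for the RefSeq transcripts NM_001004174 (AA467197), NM_010886 (Ndufa4) and NM_001098789 (Ndufa4l2), and each was printed at 1 spot. The difference of AA467197 chose the gene, so its values are a description and support nothing further.

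BMDMs were grown from the bone marrow of male C57BL6/J mice of 10 weeks, for 7 d with 10 ng/mL of M-CSF, and then received IL-4, which induces M2 macrophages, at 10 ng/mL for 24 h. During these 24 h the DMSO culture received solvent and the GW4064 culture received 10 µM of GW4064 in DMSO, and both carried IL-4. The title, source and treatment labels of the GW4064 sample name GW4064, but its free-text description names DMSO. Each condition has 1 array, a 1-colour Agilent mouse array on which the fluorescence of each spot measures the amount of Cy3-labelled RNA bound to it. No gene therefore has a replicate error or a p-value, the precision is limited by the number of arrays, and each culture was read in bulk. The comparison asks which transcripts differed when the FXR agonist was added under M2 conditions.

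Complex IV, or cytochrome c oxidase, is the last complex of the respiratory chain and passes electrons to oxygen. NDUFA4 was first listed with complex I and is now counted as a subunit of complex IV. The protein of AA467197, whose human counterpart is C15orf48, is a small relative of NDUFA4 that can take its place in complex IV, and its transcript is known to be induced in macrophages by inflammatory stimuli and to carry the microRNA miR-147. NDUFA4L2, the third relative, is known as a product of hypoxia-inducible factor.

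The 3 paralogs had 3 different patterns. AA467197 was read at a moderate signal on the DMSO array and a far higher one on the GW4064 array, Ndufa4 was bright and nearly equal on both, and Ndufa4l2 was well above background on neither. Signals here are the processed signals of the scanner software, after background subtraction and before any scaling between the arrays. Signals of different probes are not compared as amounts of RNA, since probes differ in how well they bind.

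The AA467197 spot had a signal of 343 ± 34.6 with DMSO and 3723 ± 372 with GW4064, where the error is the one that the software gives for a single spot. Once each array had been scaled to its own 75th percentile (1209 with DMSO and 1265 with GW4064), the log2 difference was 3.38, or 10.4-fold, with an error of 0.21 on the log2 scale from the software errors of both spots. The increase was there before scaling and before the software's corrections, with a ratio of 10.9 between the processed signals and of 10.6 between the median pixels after subtraction of the local background. The median pixels were 307.5 and 3098 over local backgrounds of 17 and 12.

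The Ndufa4 spot, for the subunit that AA467197 can replace, had a signal of 19501 ± 1950 with DMSO and 20859 ± 2086 with GW4064. The log2 difference of 0.031, which became -0.16 with centring on spike-in control RNA (RNA that is added to samples at labelling), was smaller than its error of 0.20. The differences of AA467197 and Ndufa4 were 3.34 apart on the log2 scale. Whether the ratio of the proteins in complex IV differed was not measured by these arrays.

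The Ndufa4l2 spot had a signal of 7.15 ± 3.38 with DMSO and 7.18 ± 3.18 with GW4064 and passed the software's test for a signal well above background on neither array. The lowest signals well above background were 15.7 and 15.1. Of 153 negative control spots, 14 with DMSO and 12 with GW4064 were as bright as Ndufa4l2 or brighter, so no difference is given for this gene.

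**Figure D1:**
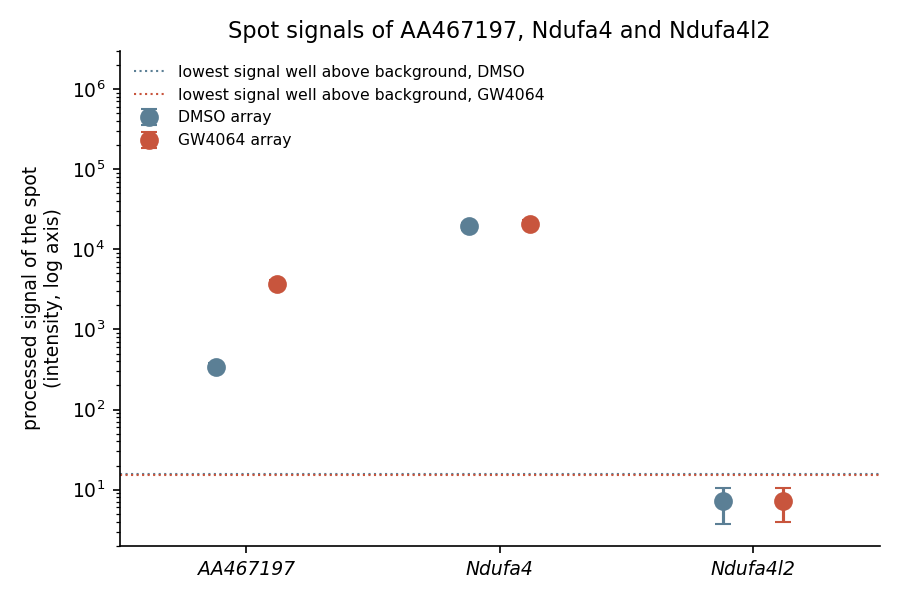
Processed signal (intensity, log axis) of the single spot of AA467197, Ndufa4 and Ndufa4l2 on both arrays (DMSO and GW4064), where bars are the software's error for a spot and dotted lines are the lowest signal well above background. AA467197 goes from 343 to 3723, Ndufa4 reads 19501 and 20859 and Ndufa4l2 lies below both lines.

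Probes printed 10 times on each array give the spread between spots of the same RNA, which is technical. Among 57 such probes within 2-fold of the mean level of AA467197, the copies of a probe scattered with a median SD of 0.066 in the log2 difference, and with 0.24 at most. For the 32 such probes near the level of Ndufa4 these SDs were 0.070 and 0.24. Copies marked as uneven or as outlying among the copies were left out first, which can lower these SDs. The spots of AA467197 and Ndufa4, printed once, have no copies for such marking. Where a gene had 2 probes well above background on both arrays, which was so for 2711 genes, their differences lay a median of 0.10 and in 95% of genes at most 0.46 apart on the log2 scale. These spreads are technical, and AA467197, chosen for its difference, is not tested against them. The difference of Ndufa4 lay below each of them with the 75th percentile scaling (0.031), but with spike-in centring (-0.16) it exceeded the median SDs and the median gap between probes in size. Of 4 such genes with 1 probe 4-fold or more higher, the other probe was 2-fold or more higher in 3 and had 0.22 in the remaining gene, and AA467197 has no other probe. How far separate cultures would differ is not known from these arrays.

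Part of the slide carried clusters of spots that differed strongly between the arrays. Areas in which a spot had 2 or more others with an 8-fold difference within 300 µm are called discordant areas here and held 16.5% of the spots. Around the AA467197 spot there were 0 such spots within 300 µm and 0 within 1000 µm, and the 114 other spots in the 5 rows and columns on each side had a median log2 difference of -0.063, 80% of them between -0.30 and 0.37. The Ndufa4 spot had 1 within 300 µm and 15 within 1000 µm. The spots around it scattered more widely, with 80% between -0.87 and 1.23, around a median of 0.038. The Ndufa4l2 spot had 0 within 300 µm and 1 within 1000 µm.

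AA467197 ranked 5 by increase among 21707 probes measured on both arrays. The 3 named genes just above it were Arg1, the arginase of M2 macrophages, with a log2 difference of 3.82, Mfng, a glycosyltransferase that modifies Notch, with 3.65, and Camkk1, a calcium-dependent kinase, with 3.52. The 3 named genes just below it, at ranks 7, 10 and 12, were Bmp2, a bone morphogenetic protein, with 3.21, the chemokine Cxcl14 with 2.84, and Mmp9, a matrix metalloproteinase, with 2.78. For these 6, the spots read for Mfng and Bmp2 lay in discordant areas, and the other probe of Mfng had 3.37. Camkk1 and Bmp2 had low DMSO signals, 43.8 and 26.2, where the lowest signal well above background was 15.7. As a background, the GW4064 signal was higher by at least 2-fold for 2.15% of the 23747 probes measured on 1 array or both, and lower by as much for 2.78%. Among the 21707 probes measured on both arrays, 178 were higher and 278 lower by as much.

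The pair of levels most like that of AA467197 belonged to Mmp9, at a distance of 0.43 on the log2 scale over both arrays, with signals of 437 and 3152. Mmp9 was printed 10 times, 1 of these spots lay in a discordant area, and the SD of its difference over the copies was 0.11. The next 4 genes were farther away. Neurl3, a ubiquitin ligase, lay at a distance of 1.34 and the semaphorin receptor Plxna4 at 1.51. The inhibitory receptor Pilra lay at 1.52 and the chemokine Ccl5 at 1.55. Their log2 differences were between 1.25 (Pilra) and 1.73 (Plxna4), so that of the 5, Mmp9 alone was near AA467197 in both level and difference.

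**Figure D2:**
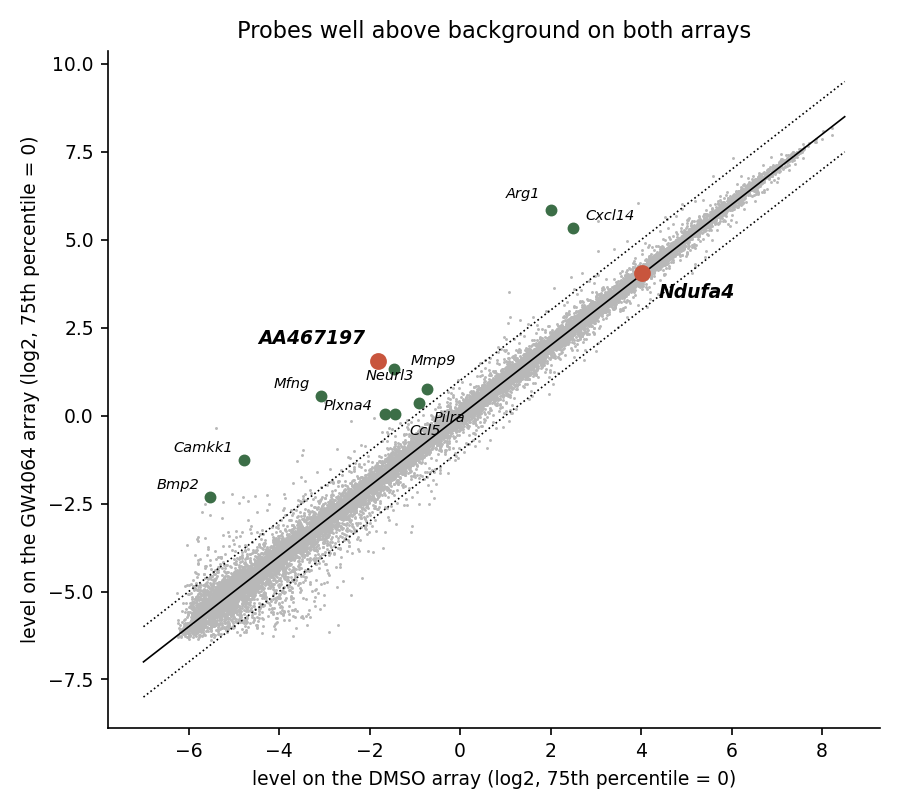
Log2 level of each probe well above background on both arrays, DMSO array on the x axis and GW4064 array on the y axis, with the 75th percentile of each array at 0; the solid line marks equal levels, dotted lines a 2-fold difference, red points AA467197 and Ndufa4, and green points the genes nearest in rank or in levels. Ndufa4 lies on the line of equal levels (0.031) and AA467197 lies 3.38 above it, close to Mmp9.

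In the annotation of GRCm38.p6, the microRNA gene Mir147 lies within the span of AA467197 on chromosome 2. The arrays were designed on mm9, so no coordinates are given, and no probe was matched to Mir147. The 5 nearest protein-coding genes with a probe were examined on each side to see whether the difference extended along the chromosome. Gatm, the enzyme of the first step of creatine synthesis and the nearest such gene on one side, had signals of 3941 with DMSO and 7502 with GW4064, or 0.86 on the log2 scale. Slc30a4, a zinc transporter and the nearest on the other side, had signals of 6779 and 5717, or -0.31.

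The other neighbours had smaller differences. Slc28a2 had a log2 difference of -0.11 and Slc28a2b of -0.18, both nucleoside transporters, and Shf of -0.18 as the mean of 2 probes. Bloc1s6 had -0.11, Sqor, the mitochondrial enzyme that oxidizes sulfide, -0.019, Sema6d 0.046 and Slc24a5 0.058, the last 2 of which were below 0 (-0.14 and -0.13) when centred on spike-in control RNA. Duox1 was well above background on neither array, and Spata5l1, which the annotation places between Gatm and AA467197, had no matched probe. None of the 9 neighbours measured reached 2-fold, and 4.75% of 13532 measured genes did so in either direction.

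**Figure D3:**
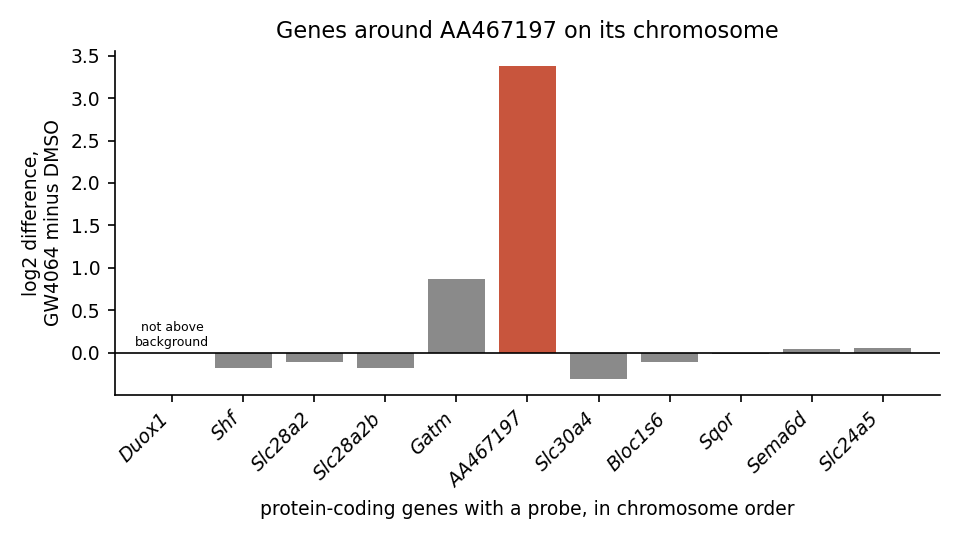
Log2 difference (GW4064 array minus DMSO array) of AA467197 and of the 5 nearest protein-coding genes with a probe on each side, in chromosome order and not to scale in distance. AA467197 stands at 3.38, Gatm at 0.86 and every other measured neighbour between -0.31 and 0.058; centred on the spike-in RNA, Sema6d and Slc24a5 turn negative.

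The genes for the other nuclear-encoded subunits of complex IV had differences close to those of all genes. Of 17 such genes 14 were well above background, of which 0 were 2-fold or more different, where 4.75% of all measured genes were, so that a count of 0 is near the background. With a median log2 difference of 0.044 they lay near the median of all 13532 measured genes, 0.0068. Of the 14 genes, 11 were higher and 3 lower, against 51.6% higher and 48.2% lower among all measured genes, but the sign of such small values depends on the scaling. Scaling to the spike-in RNA instead shifted the median of all measured genes to -0.18 and that of the complex IV genes to -0.14, with 2 higher and 12 lower, and 18.2% of all measured genes were then higher.

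Cox7b had the largest difference upward, 0.23, and Cox5b followed with 0.19, while Cox6a2, the form of subunit VIa typical of heart and muscle, had the largest downward, -0.19. The main form of subunit IV, Cox4i1, had signals of 111949 with DMSO and 118984 with GW4064, or 0.022 on the log2 scale. The hypoxia-linked form Cox4i2 had signals of 132 and 143, or 0.050. Cox6a1, the common form of subunit VIa, had -0.022. Cox6b1 had 0.040 and Cox6b2, typical of testis, 0.017.

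Of the remaining subunits, Cox7a2 had a log2 difference of 0.12 and Cox7a1, its heart and muscle form, 0.055. Cox5a had 0.047, Cox6c 0.053, Cox7c 0.041 as the mean of 3 probes and Cox8a -0.055 as the mean of 2. Cox7b2, Cox8b and Cox8c were well above background on neither array. The spots of Cox5a, Cox6b1, Cox7a2 and Cox7b lay in discordant areas, and without these areas the median of the subunits was 0.032.

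**Figure D4:**
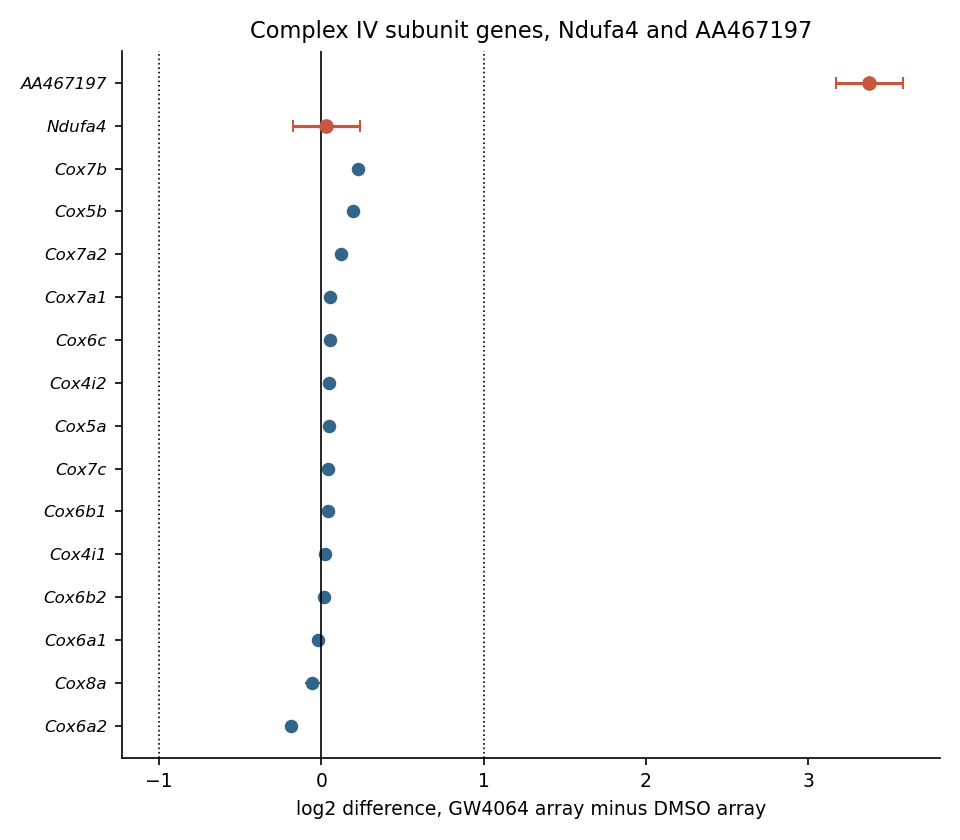
Log2 difference (GW4064 array minus DMSO array) of the 14 measured complex IV subunit genes in blue, as the mean over their probes with a line from the lowest to the highest probe, and of Ndufa4 and AA467197 in red with the error from the software, and dotted lines mark 2-fold. The subunits lie between -0.19 and 0.23, Ndufa4 at 0.031 and AA467197 at 3.38; centred on the spike-in RNA, 12 of the 14 subunits and Ndufa4 are below 0.

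Genes that assemble complex IV or deliver its copper were measured for 24 of 27, of which 0 were 2-fold different, 19 were higher and 5 lower, with a median log2 difference of 0.087, beside 4.75% of all measured genes 2-fold different and 51.6% higher. The largest was Cox16 with 0.38, whose spots both lay in discordant areas and whose probes disagreed (0.023 and 0.74). The lowest was Surf1, a factor for the insertion of heme, with -0.20. Among the other complex I subunits of the NDUFA series, with which Ndufa4 was first listed, 12 of 12 were measured, 0 were 2-fold different, and 6 were higher and 6 lower with a median of 0.039. They ranged from Ndufa11 with -0.080 to Ndufa2 with 0.33. Centred on the spike-in RNA, 4 of the 24 assembly genes and 2 of the 12 NDUFA genes were higher, near the 18.2% of all measured genes.

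Because Ndufa4l2 is a target of hypoxia-inducible factor, 18 other hypoxia-inducible genes were listed, of which 17 were measured. They had a median log2 difference of 0.16, with 15 higher and 2 lower, beside 51.6% of all measured genes higher. Centred on the spike-in RNA 8 were higher and 9 lower with a median of -0.023. All measured genes then had 18.2% higher and a median of -0.18. Vegfa, a growth factor for blood vessels, was the single gene at 2-fold or more, with 1.38 and 1.18 on its 2 probes, and 2.04% of all measured genes were 2-fold or more higher. Bnip3, a mitochondrial protein of hypoxia, had 0.16, Pdk1 0.12 and Car9 -0.10. Mxi1, like Ndufa4l2, was well above background on neither array.

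Because AA467197 is known from macrophages activated through Toll-like receptors, 21 genes that such stimuli and NF-kB induce were listed, of which 16 were measured. At 2-fold, 4 of these were higher (2.04% of all measured genes were) and 0 were lower (2.71% of all were). The median log2 difference was 0.29, with 14 higher and 2 lower, beside 51.6% of all measured genes higher. Centred on the spike-in RNA 11 were higher and 5 lower, beside 18.2% of all measured genes higher. Il1a and Ptgs2 were well above background on the GW4064 array alone, so they could not count as lower. The 4 genes were Saa3, Acod1, Il1b and Ccl5.

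Acod1, the enzyme that makes itaconate, had a mean signal of 47.7 with DMSO and 235 with GW4064, or 2.26 on the log2 scale. It was printed 10 times, and the SD was 0.27 among the 9 copies kept on both arrays. Il1b, the cytokine interleukin-1 beta, had 20.7 and 81.1, or 1.90 on the log2 scale, with an SD of 0.20 among 7 copies. Both were low on the DMSO array, and after another background correction (normexp on the median pixels, offset 50) the differences were 1.28 for Acod1 and 0.64 for Il1b.

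Saa3, an acute-phase protein, had signals of 31.4 and 168, or 2.35 on the log2 scale, at 1 spot that lay in a discordant area, so that 3 genes were 2-fold or more higher without these areas. Saa3 was also low on the DMSO array, and its difference was 1.17 with normexp. With normexp too, 3 genes of the list were 2-fold or more higher. Ccl5, a chemokine, had 446 and 1311, or 1.49, at 1 spot outside such areas. Tnf and Nos2, well-known genes of the same response, had differences near 0. Tnf, with signals of 990 and 1036, had 0.0014 on the log2 scale and an SD of 0.045 among 10 copies, and Nos2, with 47.8 and 50.1, had 0.00097, both below 0 when centred on the spike-in RNA. Icam1 was the lowest with -0.36. Il6, Cxcl1, Cxcl2 and Cxcl3 were well above background on neither array, so no fold is given, but each read higher with GW4064. Their signals were 3.81 and 7.38 for Il6, 4.82 and 17.3 for Cxcl1, 4.30 and 18.3 for Cxcl2, and 6.58 and 19.8 for Cxcl3, where 95% of the negative controls lay below 17.3 with DMSO and 16.7 with GW4064. Without the filter on dim probes, 8 genes of the list in place of 4 were 2-fold or more higher. Among all probes, 1637 of 39200 in place of 510 of 23747 were then higher by as much, and 1664 in place of 659 lower. Tnf, Nos2, Il6, Cxcl1, Cxcl2 and Cxcl3 were picked out after their values were seen.

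**Figure D5:**
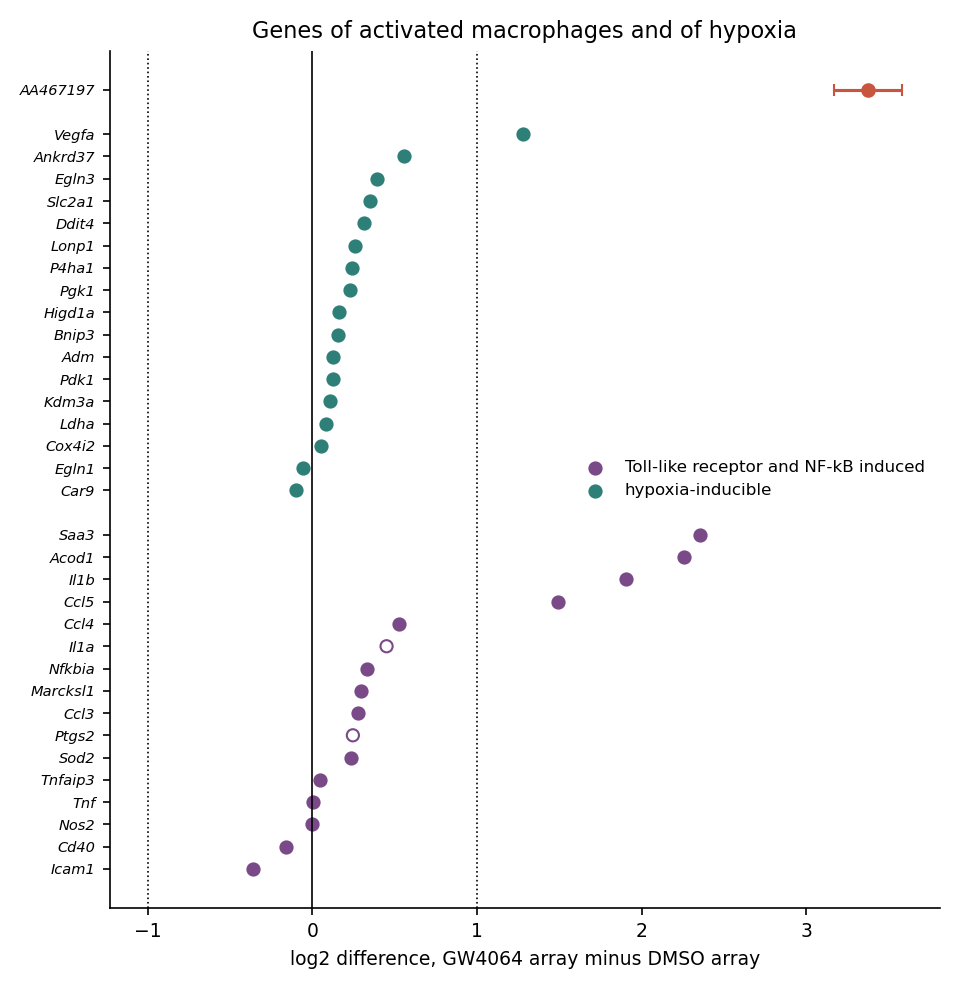
Log2 difference (GW4064 array minus DMSO array) of the measured Toll-like receptor and NF-kB induced genes (purple) and hypoxia-inducible genes (green), beside AA467197 in red with its software error; open circles are lower bounds for genes measured on the GW4064 array alone and dotted lines mark 2-fold. Saa3, Acod1, Il1b, Ccl5 and Vegfa lie beyond 2-fold upward and AA467197 lies at 3.38; centred on the spike-in RNA each point moves down by 0.19, which keeps those named beyond 2-fold and turns 3 purple and 7 green points from above to below 0.

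The cultures were checked against the markers of macrophages and of other cells, since in bulk RNA fewer cells of a type and less RNA per cell cannot be told apart. Of 12 macrophage markers 10 were measured and 0 were 2-fold different, where 4.75% of all measured genes were. Of these 10, 6 were higher and 4 lower, beside 51.6% of all measured genes higher. Centred on the spike-in RNA all 10 were lower, where 18.2% of all measured genes were higher. Mrc1, the mannose receptor, was the lowest with a log2 difference of -0.34. The median log2 difference of the measured markers was 0.057. Their signal summed over all probes, 389069 with DMSO and 369517 with GW4064, had a ratio of 0.907 (GW4064 over DMSO) after scaling. Most of this sum came from the 3 probes of Csf1r and the 2 of Adgre1, whose log2 differences were -0.24 and -0.25. Cd68 had no matched probe and Cd163 was not well above background.

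Stromal markers were lower in 8 of 9 measured genes, beside 48.2% of all measured genes, with a median log2 difference of -0.72. Their summed signal was 37511 with DMSO and 21329 with GW4064, a ratio of 0.543 after scaling. Col1a2 was lowest with -0.99 and Pdgfra had 0.065. Thy1, measured on the DMSO array alone, could not count as higher. Of 10 measured neutrophil markers 7 were lower, beside 48.2% of all measured genes, with a median log2 difference of -0.40. Their summed signals were 14490 and 10086, a ratio of 0.665 after scaling. Cebpe, a transcription factor of granulocytes, was higher by 2.39 on the log2 scale, where 2.04% of all measured genes were 2-fold or more higher. Prtn3, measured on the GW4064 array alone, could not count as lower. Centred on the spike-in RNA, 9 stromal and 8 neutrophil markers were lower, where 18.2% of all measured genes were higher. Of 5 measured dendritic cell markers 2 were higher and 3 lower, with a median of -0.041, beside 51.6% of all measured genes higher and 48.2% lower. The ratio between their summed signals was 0.841, but bright probes outweigh dim ones in such a sum. Most of the sum came from Itgax, with signals of 186594 (DMSO) and 159127 (GW4064) at a spot in a discordant area. The 2 higher genes added little to it, Flt3 with 10.5 and 81.5 and Zbtb46 with 24.3 and 34.1 as the mean of 2 probes. Flt3 was at least 4.94-fold higher, where 2.04% of all measured genes were 2-fold or more higher. It was read at 1 spot in a discordant area, well above background on the GW4064 array alone, so Flt3 could not count as lower. The other of its 2 probes was well above background on neither array. Zbtb46 had a log2 difference of 0.44, while Ccr7 had -0.60, Itgax -0.30 and Siglech -0.041. The part of stromal, neutrophil and dendritic cells in the AA467197 difference was not tested.

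AA467197 is also known from epithelia. Of 9 epithelial markers, Epcam, Krt8, Krt18, Krt19, Krt5 and Cldn4 were well above background on neither array. Krt14 had a log2 difference of -1.55 at a spot in a discordant area, Cdh1 had 0.0035 and Cldn7 -0.13. Thus 0 of the 3 measured were 2-fold or more higher, beside 2.04% of all measured genes. Of 8 lymphocyte markers 3 were measured, of which Ms4a1 was at least 2.47-fold lower, where 2.71% of all measured genes were 2-fold or more lower. Ms4a1, measured on the DMSO array alone, could not count as higher. Cd3e had a log2 difference of 0.18 (below 0 when centred on the spike-in RNA) and Cd4 of -0.15. Of 6 mast cell and basophil markers 2 were measured, Kit with a log2 difference of -0.74 and Gata2 with 0.17 (below 0 when centred on the spike-in RNA).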

How the data were processed

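The authors deposited, per array, the spot intensities of Agilent Feature Extraction 10.7.1.1, background-subtracted and detrended within the array, and a log2 table of both arrays. The deposited log2 table had column medians of 0.035 (DMSO) and -0.051 (GW4064). Its differences equalled those computed here for 39200 probes, apart from a constant of 0.0022 (largest deviation 2.8e-06). Its baseline per probe is unknown.

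The log2 processed signal minus the 75th percentile over 43020 non-control spots was used. Spots marked uneven or outlying among copies were left out (399 on the DMSO and 207 on the GW4064 array), which removed 229 probes. No spot was saturated. Copies were averaged and genes are means over their measured probes, those well above background on 1 array or both. On the array that did not measure it, a probe took its own value or, if higher, the lowest one well above background, and is given as "at least N-fold".

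RefSeq transcripts of GRCm38.p6, without versions, named 26581 probes. No test was possible with single arrays. Members and lists were chosen with earlier results of these data known. The text names the members, the complex IV genes, the 2-fold genes of other lists or else their extremes, the 5 genes of most similar levels, 3 on each side in rank and 5 on each side on the chromosome, with a few others for context, and 1 gene that this rule names is not reported here. Functions were tested on simulated data. Alternatives covered scaling (quantile, median, loess with span 0.3, spike-in), normexp, spot and probe filters, thresholds, the deposited log2 table and discordant areas. R 4.3.3 with limma 3.58.1 ran normexp, and Python 3.11.15 did the rest, with pandas 2.3.3 for tables, numpy 2.4.6, statsmodels 0.14.6 for loess, scipy 1.17.1 for distances between spots and matplotlib 3.10.9 for figures.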

Additional observations from a re-analysis of the deposited data

How the results depend on the processing

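No paired analysis was possible because both conditions rest on single arrays. The log2 difference of AA467197 stayed between 3.11 and 3.38 over 10 alternatives. It moved by more than the median SD over copies (0.066) with spike-in centring (3.19) and with normexp (3.11). The move with spike-in centring, 0.19, was below the largest SD over copies, 0.24. Keeping marked spots, changing the filter on dim probes or leaving out discordant areas could not alter it, since its spot passed each filter. The log2 difference of Ndufa4 was -0.16 and the complex IV median -0.14 with spike-in centring, where all probes shift alike. Ndufa4l2 gave no value, not being well above background. Against 510 probes higher and 659 lower by at least 2-fold, there were 112 and 120 with normexp, 1637 and 1664 without a filter on dim probes, 178 and 278 for probes well above background on both arrays, 277 and 338 without discordant areas, 1117 and 1317 at 1.5-fold and 118 and 156 at 4-fold. Spike-in centring gave 380 and 901, so that 29.7% of the calls were higher against 43.6%. Alternatives for Acod1, Il1b, Saa3 and Ccl5 were chosen after the data were seen, and each kept its direction where measured, Saa3 having no value without discordant areas.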
